A study of Mus musculus with 12 samples.

Results

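The 9 genes of the matrix metalloproteinase (MMP) system described here, followed in mouse peritoneal macrophages treated with SPARC, were the proteases Mmp8, Mmp9, Mmp12, Mmp13, Mmp14 and Mmp19, and the inhibitors Timp1, Timp2 and Timp3. They were taken by gene symbol, 9 of the 47729 genes in the count matrix, and all 9 passed the filter on low counts that left 15232 genes for testing. Polyadenylated RNA had been sequenced from peritoneal macrophages of C57BL/6 mice that received either IL-4 complex (IL4c) or thioglycollate (TG). IL4c, in which an antibody lengthens the action of the cytokine IL-4, was given in 2 injections, each of 5 ug IL-4 with 25 ug antibody, the last 2 days before collection. TG, an irritant broth that draws monocytes into the peritoneal cavity, was given once, at 3%, 4 days before collection. Cells were collected by lavage, seeded at 3000000 per well and washed after 2 h, so adherent cells were studied. Wells then stayed untreated or received 20 ug/ml of SPARC, a secreted matrix-binding glycoprotein, for 24 h. The 4 groups were IL4c with SPARC, IL4c untreated, TG with SPARC and TG untreated, with 3 libraries each. The labels name no control protein for SPARC and do not say whether replicates came from separate animals, and a p-value here covers only the spread among these libraries.

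MMPs are zinc-dependent endopeptidases that cut collagens, elastin and other proteins of the extracellular matrix as well as cytokines and cell-surface proteins. Most are secreted as inactive zymogens, and some, such as the product of Mmp14, stay anchored in the cell membrane. TIMPs bind the active site of MMPs and block it, and TIMP2 at low levels also helps the Mmp14 product to activate pro-MMP2. Macrophages are a main source of both at sites of inflammation and matrix turnover.

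The promoters of Timp1, Mmp14 and Timp2, which passed with SPARC in both injections, and 2 windows that held an AP-1 match are shown first. RefSeq promoters on GRCm38.p6, from 250 bases before to 50 after a start site, were matched for 7 of the 9 members, with 2 start sites for Mmp12. Both strands were searched for the AP-1 site TGANTCA, which reads alike on either strand, the interferon-response core GAAANNGAA and an NF-kB site. Among 32851 promoters of the same length, 7.81% held the AP-1 site, 8.56% the interferon-response core and 8.46% the NF-kB site. Capitals mark matches in the lines below. The Timp1 window (chrX:20869916-20870215, plus strand), the Mmp14 window (chr14:54431348-54431647, plus strand) and the Timp2 window (chr11:118355362-118355661, minus strand) held none of the 3 motifs.
Timp1: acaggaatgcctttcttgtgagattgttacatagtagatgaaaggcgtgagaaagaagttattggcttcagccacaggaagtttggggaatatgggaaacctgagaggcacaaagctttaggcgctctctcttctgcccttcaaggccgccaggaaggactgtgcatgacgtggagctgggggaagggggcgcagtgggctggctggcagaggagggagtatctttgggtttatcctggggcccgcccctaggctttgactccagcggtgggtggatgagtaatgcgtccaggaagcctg
Mmp14: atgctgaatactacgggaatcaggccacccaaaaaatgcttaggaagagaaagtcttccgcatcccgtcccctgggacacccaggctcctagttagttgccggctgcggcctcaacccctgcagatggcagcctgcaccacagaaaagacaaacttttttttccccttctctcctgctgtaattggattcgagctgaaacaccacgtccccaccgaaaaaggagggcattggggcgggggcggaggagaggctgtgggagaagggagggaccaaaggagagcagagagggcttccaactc
Timp2: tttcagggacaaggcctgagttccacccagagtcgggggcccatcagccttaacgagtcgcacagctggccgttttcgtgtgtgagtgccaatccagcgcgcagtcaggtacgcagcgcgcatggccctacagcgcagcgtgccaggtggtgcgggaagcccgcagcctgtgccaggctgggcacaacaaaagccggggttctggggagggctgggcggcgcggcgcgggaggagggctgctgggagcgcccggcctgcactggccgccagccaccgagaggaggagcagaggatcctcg
The Mmp13 window (chr9:7272264-7272563, plus strand) held the AP-1 match TGACTCA beginning 35 bases before the start site and 2 adjoining interferon-response matches that share bases, beginning 151 and 145 bases before it on the minus strand. The window of the second Mmp12 start (chr9:7347124-7347423, plus strand) held the AP-1 match TGAGTCA beginning 44 bases before the start site.
Mmp13: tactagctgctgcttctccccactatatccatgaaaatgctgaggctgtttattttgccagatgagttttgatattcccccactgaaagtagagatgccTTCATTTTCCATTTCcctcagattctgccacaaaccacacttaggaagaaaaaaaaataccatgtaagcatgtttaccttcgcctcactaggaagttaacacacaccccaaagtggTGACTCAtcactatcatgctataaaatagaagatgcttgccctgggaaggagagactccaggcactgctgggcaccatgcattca
Mmp12, second start: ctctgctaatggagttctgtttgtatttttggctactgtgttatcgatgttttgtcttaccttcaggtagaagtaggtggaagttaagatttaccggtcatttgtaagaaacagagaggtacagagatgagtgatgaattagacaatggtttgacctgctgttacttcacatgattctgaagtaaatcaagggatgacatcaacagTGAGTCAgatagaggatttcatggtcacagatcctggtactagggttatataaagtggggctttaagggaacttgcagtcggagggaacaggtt
Of the windows not printed, that of the first Mmp12 start held an NF-kB match beginning 129 bases before it on the minus strand, and those of Mmp8 and Timp3 held none of the 3 motifs. A match describes these letters and does not show that a factor binds there.

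The libraries held 31501941 to 42288785 counts each, so that 3 counts corresponded to 0.0707 to 0.0974 CPM, the unit of counts scaled to library size used below. All 7 macrophage markers were detected in every library, with a summed level of 12660 to 18548 CPM in IL4c macrophages with SPARC, 20250 to 27683 CPM in untreated IL4c macrophages, 29940 to 30806 CPM in TG macrophages with SPARC and 22020 to 34602 CPM in untreated TG macrophages. The sum runs over 8 entries, as Itgam was entered repeatedly, and Lyz2 alone ran from 4444 to 27859 CPM over the libraries. In IL4c macrophages Lyz2 and Mertk fell with SPARC and Fcgr1 rose (adjusted p under 0.05, edgeR), and no other macrophage marker passed. The TG libraries numbered 1, with SPARC and untreated, stood apart from the other TG libraries: their 10 B cell markers summed to 1782 and 2269 CPM, against 86.2 to 183 CPM in the others, and their 8 markers of large resident macrophages to 1274 and 362 CPM, against 35.2 to 110.2 CPM. Most of the resident sums was Prg4, at 1173 and 197 CPM, against 11.6 to 82.9 CPM in the others. Gata6 alone of the 8 overlapped, at 5.24 to 5.89 CPM, against 1.46 to 5.57 CPM in the others. The IL4c libraries numbered 3 had the lowest B cell and resident sums of their groups. They also had the highest macrophage sums, at 18548 CPM with SPARC and 27683 CPM untreated. Their B cell sums were 57.1 CPM with SPARC, against 113 and 154 CPM, and 120 CPM untreated, against 237 and 347 CPM. Their resident sums were 2213 CPM with SPARC, against 3388 and 3679 CPM, and 672 CPM untreated, against 1132 and 1302 CPM. In bulk RNA, fewer cells of a type and less RNA per cell cannot be told apart.

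In IL4c macrophages treated with SPARC, Timp1 and Mmp14 rose and Timp2 and Mmp19 fell. In TG macrophages, Timp1 and Mmp14 rose and Timp2 fell. These were 4 of 9 members in IL4c macrophages, where 27.8% of all tested genes passed an adjusted p of 0.05, and 3 of 9 in TG macrophages, where 11.3% did. The median log2 fold change of the 9 members was 0.64 in IL4c and 0.88 in TG macrophages, beside medians of −0.00 and −0.03 over all tested genes. The 2 members that rose in each injection compare with 15.1% of all genes that rose in IL4c and 6.73% in TG macrophages, and the 2 that fell in IL4c and 1 in TG macrophages with 12.7% that fell in IL4c and 4.52% in TG macrophages. Libraries with and without SPARC did not overlap for 5 of 9 members in IL4c macrophages, against 50.4% of all tested genes, and for 4 of 9 in TG macrophages, against 30.4%. Fold changes are SPARC over untreated from the quasi-likelihood fit of edgeR, with p-values adjusted over all tested genes by the Benjamini-Hochberg method. The labels state no pairing, but libraries of equal number within an injection were read as pairs from these same data. The fit with that inferred pairing as a block is given where it changes a call.

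**Figure D1:**
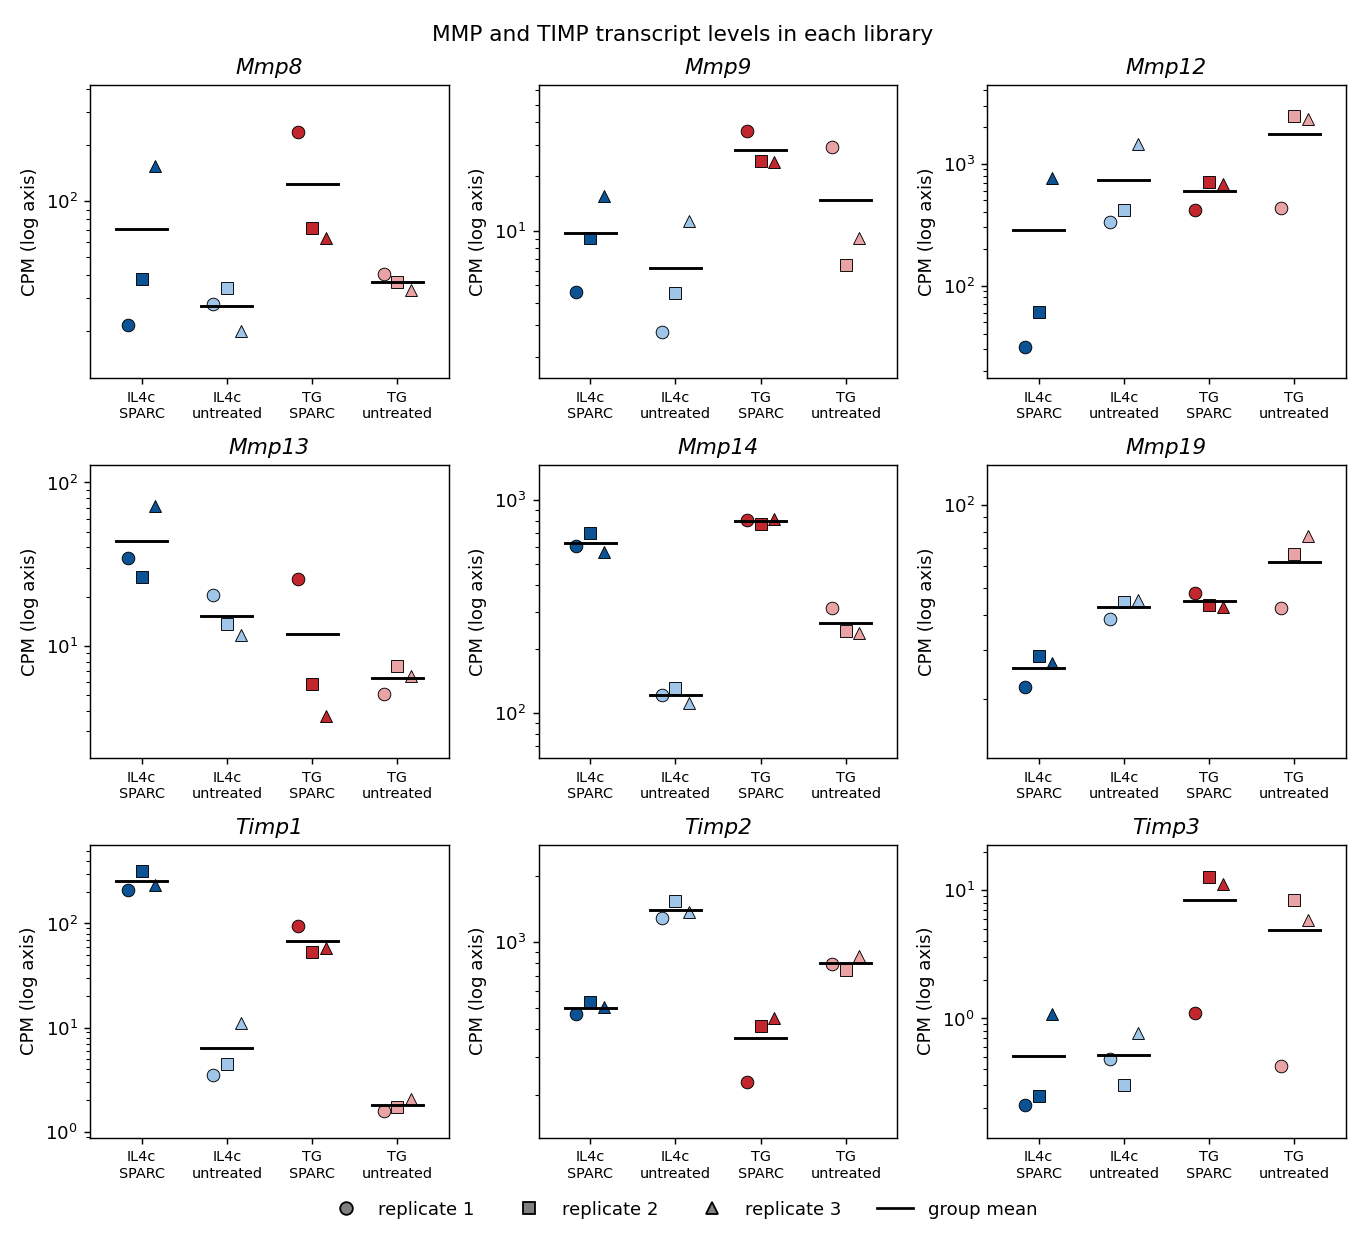
Transcript level of each member in each of the 12 libraries, in CPM on a log axis, with a panel per gene, a symbol per replicate number and a bar at the group mean. Timp1 and Mmp14 lie higher in all SPARC-treated libraries of both injections and Timp2 lies lower, while the spread of Mmp12 within a group is wide.

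Timp1 (ENSMUSG00000001131.11, chromosome X:20870166-20874735, plus strand) encodes a soluble inhibitor of most secreted MMPs that also acts as a growth factor. In IL4c macrophages it reached 209.5, 318 and 232 CPM with SPARC, against 3.50, 4.51 and 11.0 CPM in untreated cells. In TG macrophages it reached 94.8, 53.0 and 57.9 CPM with SPARC, against 1.58, 1.72 and 2.07 CPM in untreated cells. Every SPARC-treated library was far above every untreated library of the same injection, and the highest untreated value was that of IL4c replicate 3. The rise was 39.7-fold in IL4c macrophages (log2 fold change 5.31 ± 0.46 SE, adjusted p = 1.02e-04) and 38.2-fold in TG macrophages (5.26 ± 0.47, adjusted p = 3.51e-04). Without untreated IL4c replicate 3 the IL4c log2 value was 5.98. The log2 responses differed between injections by 0.05 ± 0.59 (IL4c minus TG, adjusted p = 0.992). The gene lies within an intron of Syn1 on the other strand, with no shared exonic bases in GENCODE M21, and Syn1 had 88 to 615 counts.

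Timp2 (ENSMUSG00000017466.9, chromosome 11:118301069-118355740, minus strand) encodes the inhibitor that also takes part in pro-MMP2 activation. Its levels with SPARC were 469, 533 and 503 CPM in IL4c macrophages, against 1289.8, 1539.8 and 1367 CPM untreated. With SPARC, TG macrophages had 231, 413 and 451 CPM, against 789.5, 741 and 860.4 CPM untreated. The groups did not overlap in either injection, and TG replicate 1 had the lowest value with SPARC. The log2 fold change was −1.48 ± 0.22 in IL4c macrophages (2.79-fold lower, adjusted p = 0.00111) and −1.13 ± 0.22 in TG macrophages (2.18-fold lower, adjusted p = 0.0115). Fitted on the TG groups alone, the TG call was lost (adjusted p = 0.0969). The difference of the 2 responses was −0.35 ± 0.30 (adjusted p = 0.775). With FPKM, the authors' length-scaled and depth-scaled values, in place of counts that difference was 0.090 to 0.092 and so changed sign. Mean FPKM in IL4c macrophages was 278 ± 24.4 with SPARC and 545 ± 35.7 untreated (SD, n = 3 each), a smaller fall than in counts. Over all alternatives the IL4c log2 value ran from −1.53 to −0.97.

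Timp3 (ENSMUSG00000020044.13, chromosome 10:86300372-86349506, plus strand) encodes a matrix-bound inhibitor that also acts on ADAM17. It was scarce in IL4c macrophages, at 0.211, 0.247 and 1.08 CPM with SPARC and 0.487, 0.303 and 0.772 CPM untreated, which is 8 to 42 counts per library. In TG macrophages it was at 1.10, 12.7 and 11.3 CPM with SPARC and 0.424, 8.45 and 5.88 CPM untreated. Replicate 1 was the low library in both TG groups, and the groups overlapped in both injections. The log2 fold change was −0.03 ± 1.16 in IL4c macrophages (adjusted p = 0.988) and 0.76 ± 1.04 in TG macrophages (adjusted p = 0.701). With the pairing as a block the TG value was 0.88, with an adjusted p of 0.0321, and all 3 TG pairs were higher with SPARC, by 1.19, 0.58 and 0.93 on the log2 scale. Syn3 on the other strand shares 1733 exonic bases with Timp3, and it had 0 to 21 counts.

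Fibroblast markers were read too, and single markers differed in direction with SPARC. Their sum in each SPARC library was above that of the untreated library of its own number and injection. Their list of 8 genes, all but Lum tested, summed to 248 to 310 CPM in IL4c macrophages with SPARC, 18.6 to 47.7 CPM in untreated IL4c macrophages, 237 to 558 CPM in TG macrophages with SPARC and 15.6 to 314 CPM in untreated TG macrophages. In IL4c macrophages 2 of the 7 tested rose with SPARC, namely Pdpn (186 to 204 CPM, against 11.5 to 28.9 CPM untreated) and Dcn (58.9 to 108 CPM, against 4.51 to 10.8 CPM untreated), and in TG macrophages none of the 7 passed. Pdpn and Dcn made up nearly all of the IL4c sums with SPARC. The collagen gene Col1a1 stayed at 0.396 to 2.19 CPM with SPARC in IL4c macrophages, against 0.272 to 1.36 CPM untreated. Col3a1 was at 1.06 to 1.16 CPM with SPARC there, against 0.424 to 2.86 CPM untreated. Pdgfra lay lower, at 0.132 to 0.566 CPM with SPARC, against 0.605 to 1.14 CPM untreated, but did not pass. In TG macrophages Pdgfra was at 0.396 to 10.1 CPM with SPARC, against 0.684 to 20.9 CPM untreated. Pdpn there was at 206 to 333 CPM with SPARC, against 9.19 to 170 CPM untreated, with no overlap. Col1a1 in TG macrophages was at 11.6 to 86.6 CPM with SPARC, against 1.65 to 28.2 CPM untreated. Col3a1 was at 5.91 to 35.1 CPM with SPARC, against 0.589 to 19.5 CPM untreated, and Dcn at 4.39 to 17.1 CPM, against 1.485 to 20.0 CPM. Lum had at most 14 counts in any library and Fbln1 had 0 counts in all untreated IL4c libraries. In TG replicate 1, where Timp3 was low, Col1a2 was at 8.13 CPM with SPARC and 1.93 CPM untreated, while TG replicates 2 and 3 had 47.7 to 80.1 CPM in both treatments. Of the 7 markers of monocytes and small macrophages, Ly6c2 rose with SPARC (0.607 to 9.05 CPM, against 0.032 to 0.186 CPM untreated, in IL4c macrophages, and 189 to 227 CPM, against 0.499 to 14.2 CPM untreated, in TG macrophages) and Ccr2 fell in both injections. The others of that list, Cd226, Fcrls, Retnla, Plac8 and Irf4, did not pass with SPARC in either injection. The part of these cells in the TIMP and MMP values was not tested.

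Mmp14 (ENSMUSG00000000957.9, chromosome 14:54431612-54445364, plus strand) encodes the membrane-bound collagenase MT1-MMP, which activates pro-MMP2. In IL4c macrophages it was at 608, 697 and 571 CPM with SPARC, against 121, 131 and 111 CPM untreated. In TG macrophages it was at 806, 773 and 813 CPM with SPARC, against 312, 243 and 239 CPM untreated. All SPARC-treated libraries were above all untreated ones, and the spread within a group was small. Mmp14 rose 5.16-fold in IL4c macrophages (log2 2.37 ± 0.14 SE, adjusted p = 1.07e-05) and 3.01-fold in TG macrophages (1.59 ± 0.13, adjusted p = 2.83e-04). All 3 IL4c pairs were higher with SPARC, by 2.32, 2.41 and 2.36 on the log2 scale, against 1.37, 1.67 and 1.77 in the 3 TG pairs, so that no IL4c pair overlapped a TG pair. The difference of the responses was 0.78 ± 0.18 (IL4c minus TG), with an adjusted p of 0.184. With the pairing as a block it was 0.76 (adjusted p = 0.0357), without both TG libraries numbered 1 it was 0.63 (adjusted p = 0.0489), and by DESeq2 it was 0.77 (adjusted p = 0.00358).

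Mmp12 (ENSMUSG00000049723.14, chromosome 9:7344381-7369499, plus strand) encodes macrophage elastase. With SPARC it was at 31.3, 60.4 and 769.6 CPM in IL4c macrophages, against 332, 416 and 1445 CPM untreated. The TG values were 414, 709 and 677 CPM with SPARC, against 430.5, 2468 and 2339 CPM untreated. Replicate 3 was high in both IL4c groups and replicate 1 was low in both TG groups, so the groups overlapped in each injection although the SPARC library was the lower in all 6 pairs. The pair ratios on the log2 scale were −3.41, −2.78 and −0.91 in IL4c macrophages and −0.06, −1.80 and −1.79 in TG macrophages. The unpaired fit gave −1.35 ± 1.12 in IL4c macrophages (adjusted p = 0.411) and −1.54 ± 1.12 in TG macrophages (adjusted p = 0.432). With the pairing as a block the IL4c value was −2.38 (adjusted p = 0.0183), whereas the TG adjusted p was 0.156. The IL4c value was −3.98 (adjusted p = 0.0217) without SPARC-treated replicate 3, −0.38 (adjusted p = 0.850) without untreated replicate 3, and −3.01 (adjusted p = 0.0396) without both.

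Mmp19 (ENSMUSG00000025355.6, chromosome 10:128790910-128800824, plus strand) encodes a secreted MMP that cuts basement membrane proteins. In IL4c macrophages it was at 22.0, 28.4 and 26.8 CPM with SPARC, against 38.7, 44.5 and 45.3 CPM untreated, with no overlap. In TG macrophages it was at 48.3, 43.5 and 42.8 CPM with SPARC, against 42.4, 66.2 and 77.4 CPM untreated, with the untreated replicate 1 the lowest of all 6. The IL4c fold change was −0.73 ± 0.19 on the log2 scale (1.66-fold lower, adjusted p = 0.0181). This call was lost without IL4c replicate 1 with SPARC (adjusted p = 0.0890), untreated replicate 2 (0.0620), replicate 3 with SPARC (0.0570), untreated replicate 3 (0.0519) or both libraries numbered 3 (0.119). In TG macrophages the log2 value was −0.47 ± 0.19 (adjusted p = 0.148), and it was −0.68 (adjusted p = 0.00785) without untreated replicate 1 and −0.71 (adjusted p = 0.00950) without both TG libraries numbered 1. Tmem198b on the other strand shares 789 exonic bases with Mmp19 and had 404 to 613 counts. As the strand used in counting is not given in the sources used here, reads of that stretch may be counted for either gene.

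Mmp13 (ENSMUSG00000050578.9, chromosome 9:7272514-7283331, plus strand), a main interstitial collagenase in mice, was at 34.2, 26.3 and 71.3 CPM in IL4c macrophages with SPARC, against 20.4, 13.7 and 11.6 CPM untreated. These groups did not overlap, and the log2 fold change was 1.53 ± 0.65 (adjusted p = 0.108). It passed by DESeq2 (adjusted p = 0.0459), when the IL4c groups were fitted alone (0.0312), without the SPARC-treated TG replicate 1 (0.0156) and without both TG libraries numbered 1 (0.0123). In TG macrophages Mmp13 was at 25.7, 5.80 and 3.70 CPM with SPARC, against 5.09, 7.51 and 6.51 CPM untreated. Only replicate 1 was high, and the log2 value of 0.88 ± 0.65 (adjusted p = 0.439) became −0.38 without the SPARC-treated replicate 1.

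Mmp8 (ENSMUSG00000005800.2, chromosome 9:7558456-7568485, plus strand) encodes neutrophil collagenase. With SPARC it was at 21.5, 38.3 and 154 CPM in IL4c macrophages, against 27.8, 34.0 and 20.1 CPM untreated. TG macrophages had 235, 72.0 and 63.2 CPM with SPARC, against 40.8, 36.5 and 33.4 CPM untreated. A single library was high among the IL4c ones, replicate 3 with SPARC, while in TG macrophages every SPARC-treated library was above every untreated one. The log2 fold change was 1.38 ± 0.70 in IL4c macrophages (adjusted p = 0.174) and 0.15 (adjusted p = 0.872) without that replicate. In TG macrophages it was 1.74 ± 0.71 (adjusted p = 0.148) and 0.91 (adjusted p = 0.419) without replicate 1 with SPARC, while DESeq2 on all libraries gave an adjusted p of 0.0454 and the fit without the SPARC-treated IL4c replicate 3 one of 0.0484.

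Mmp9 (ENSMUSG00000017737.2, chromosome 2:164940780-164955850, plus strand) encodes gelatinase B. With SPARC it was at 4.56, 9.13 and 15.5 CPM in IL4c macrophages, against 2.76, 4.51 and 11.4 CPM untreated. TG macrophages were at 35.6, 24.3 and 24.0 CPM with SPARC, against 29.0, 6.47 and 9.11 CPM untreated. The groups overlapped in both injections, although each SPARC library was above the untreated library of its own number. The log2 fold change was 0.64 ± 0.67 in IL4c macrophages (adjusted p = 0.521) and 0.91 ± 0.66 in TG macrophages (adjusted p = 0.431), and with the pairing as a block the TG value was 1.18 (adjusted p = 0.0292). Neutrophils are known to carry the products of Mmp8 and Mmp9, and markers of these cells were therefore read. S100a9 had at most 3 counts, Ly6g at most 1, Mpo at most 5 and Elane at most 12 in any library. Of the 10 neutrophil markers 3 were tested, and S100a8 rose with SPARC to 25.4 to 39.1 CPM, against 6.36 to 9.13 CPM untreated, in IL4c macrophages (adjusted p = 9.65e-04) and to 27.5 to 51.6 CPM, against 6.57 to 11.4 CPM untreated, in TG macrophages (adjusted p = 0.00354). Camp rose in IL4c macrophages, to 1.16 to 2.10 CPM with SPARC, against 0.030 to 0.160 CPM untreated (adjusted p = 0.0103), and in TG macrophages its adjusted p was 0.0579. All 10 summed to 140.3 to 213 CPM in IL4c macrophages with SPARC, 130.1 to 261 CPM in untreated IL4c macrophages, 169 to 206 CPM in TG macrophages with SPARC and 173 to 319 CPM in untreated TG macrophages. Csf3r, the remaining tested marker, made up most of each sum and did not pass in either injection. In IL4c macrophages it was at 98.9 to 183 CPM with SPARC, against 120 to 254 CPM untreated (log2 −0.28, adjusted p = 0.570). In TG macrophages it was at 140 to 153 CPM with SPARC, against 166 to 308 CPM untreated (log2 −0.57, adjusted p = 0.312). The part of neutrophils in the Mmp8 and Mmp9 values was not tested.

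**Figure D2:**
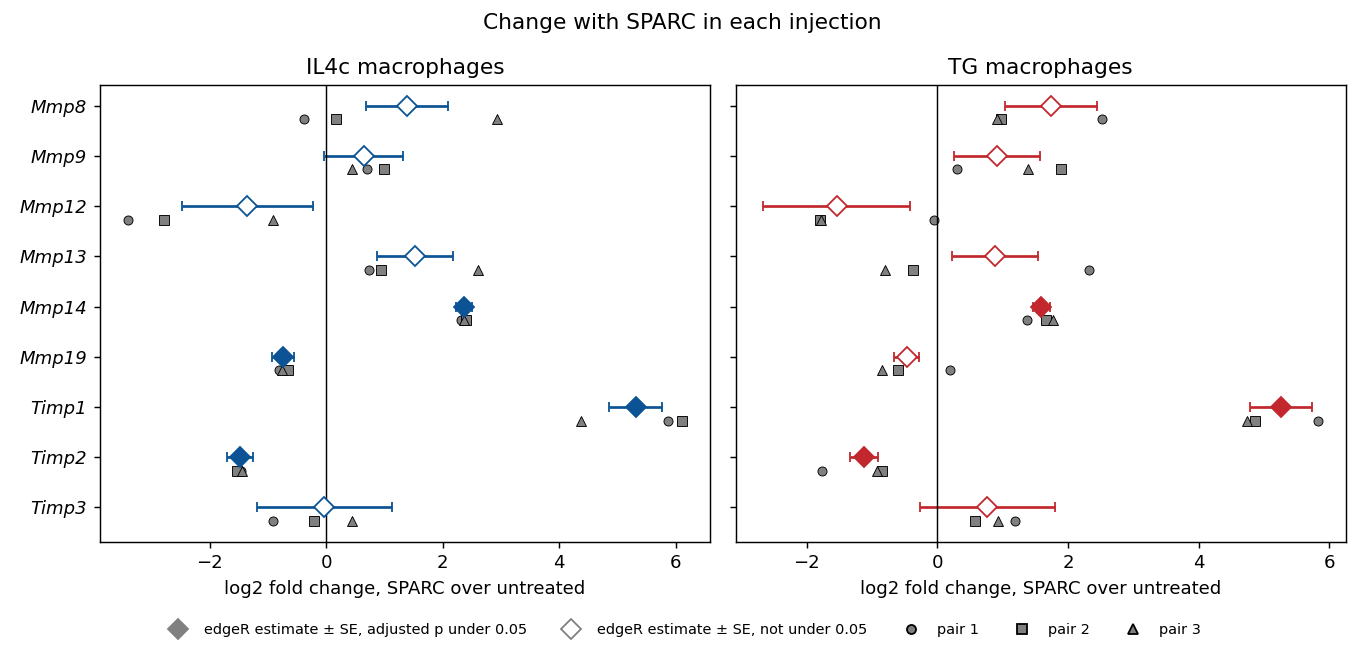
Log2 fold change of SPARC-treated over untreated macrophages for each member, IL4c on the left and TG on the right. Diamonds are edgeR estimates with their SE, filled where the adjusted p was under 0.05, and small symbols are the ratios of the 3 numbered pairs. The Timp1 estimates of 5.31 and 5.26 stand to the right of all others, and the Mmp14 pairs lie close together within each injection.

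With the pairing as a block, 5 of 9 members passed in IL4c macrophages, where 45.2% of all genes did, and 5 of 9 in TG macrophages, where 27.3% did. In IL4c macrophages, 4 members were higher in all 3 pairs and 3 were lower in all 3, where 36.0% of all genes were higher and 36.3% lower in all 3. In TG macrophages 5 members were higher in all 3 pairs and 2 lower, where 27.5% and 30.7% of all genes were. None of the 9 differences between the SPARC responses passed the unpaired fit, as none of the 15232 genes did by edgeR, and 1 member, Mmp14, had an unadjusted p under 0.05. DESeq2 called 319 genes in that comparison, Mmp14 among them, and the fit with the pairing as a block called 3.10% of all genes and 1 member, Mmp14.

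Levels were compared between genes by FPKM. The 3 TIMPs together summed to 523 to 689.6 FPKM in IL4c macrophages with SPARC and 509 to 578 FPKM in untreated IL4c macrophages, so the ranges overlapped while the make-up differed. Timp1 made up 50.3% to 58.2% of that sum with SPARC, against 0.888% to 2.50% untreated, and Timp2 41.8% to 49.6% with SPARC, against 97.5% to 99.1% untreated. In TG macrophages the sum was 227 to 283 FPKM with SPARC, against 303 to 349.9 FPKM untreated, with no overlap. There Timp1 made up 56.4%, 26.2% and 26.9% with SPARC, against 0.654% to 0.816% untreated. Timp1 thus held at least 26.2% of the TIMP sum in every SPARC-treated library and at most 2.50% in every untreated one.

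The 6 MMPs summed to 295, 343 and 776 FPKM in IL4c macrophages with SPARC, against 276, 322 and 908 FPKM untreated. The TG sums were 726, 788 and 792 FPKM with SPARC, against 473, 1617 and 1582 FPKM untreated. Sums with and without SPARC overlapped in both injections, in TG macrophages through untreated replicate 1. In TG replicates 2 and 3 alone the sums were 788 and 792 FPKM with SPARC, against 1617 and 1582 FPKM untreated, with no overlap. Mmp12 had the largest share in all 6 untreated libraries and in 3 of 6 SPARC-treated ones, and Mmp14 in the other 3. Mmp14 made up 29.4% to 83.7% of the MMP sum in IL4c macrophages with SPARC, against 4.93% to 18.1% untreated, and 40.3% to 47.0% in TG macrophages with SPARC, against 6.40% to 30.7% untreated. Mmp12 held 6.11%, 10.1% and 57.2% in IL4c macrophages with SPARC, against 70.5% to 91.8% untreated, and 34.0% to 52.9% in TG macrophages with SPARC, against 59.5% to 91.1% untreated. The ratio of MMP to TIMP FPKM was 0.497 to 1.30 in IL4c macrophages with SPARC and 0.543 to 1.59 untreated, and 2.79 to 3.20 in TG macrophages with SPARC and 1.35 to 5.34 untreated, overlapping in both. The TG overlap came from untreated replicate 1: without both TG libraries numbered 1 the ratios were 2.79 and 2.98 with SPARC, against 4.56 and 5.34 untreated.

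By mean FPKM the order in SPARC-treated IL4c macrophages was Timp1, Timp2, Mmp14, Mmp12, Mmp8, Mmp13, Mmp19, Mmp9 and Timp3. Neighbours in that order overlapped as far as Mmp13, and the last 4 were separate. In untreated IL4c macrophages it was Timp2, Mmp12, Mmp14, Mmp19, Mmp8, Timp1, Mmp13, Mmp9 and Timp3, where Timp2 overlapped Mmp12 and the 4 genes from Mmp19 to Mmp13 each overlapped the next. In SPARC-treated TG macrophages it was Mmp12, Mmp14, Timp2, Timp1, Mmp8, Mmp19, Mmp9, Mmp13 and Timp3. Mmp14 and Timp2, Mmp8 and Mmp19, and Mmp19 and Mmp9 were the neighbours that did not overlap. In untreated TG macrophages it was Mmp12, Timp2, Mmp14, Mmp19, Mmp8, Mmp9, Mmp13, Timp1 and Timp3, where Mmp12 overlapped Timp2, Mmp19 overlapped Mmp8, Mmp9 overlapped Mmp13 and Mmp13 overlapped Timp1.

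**Figure D3:**
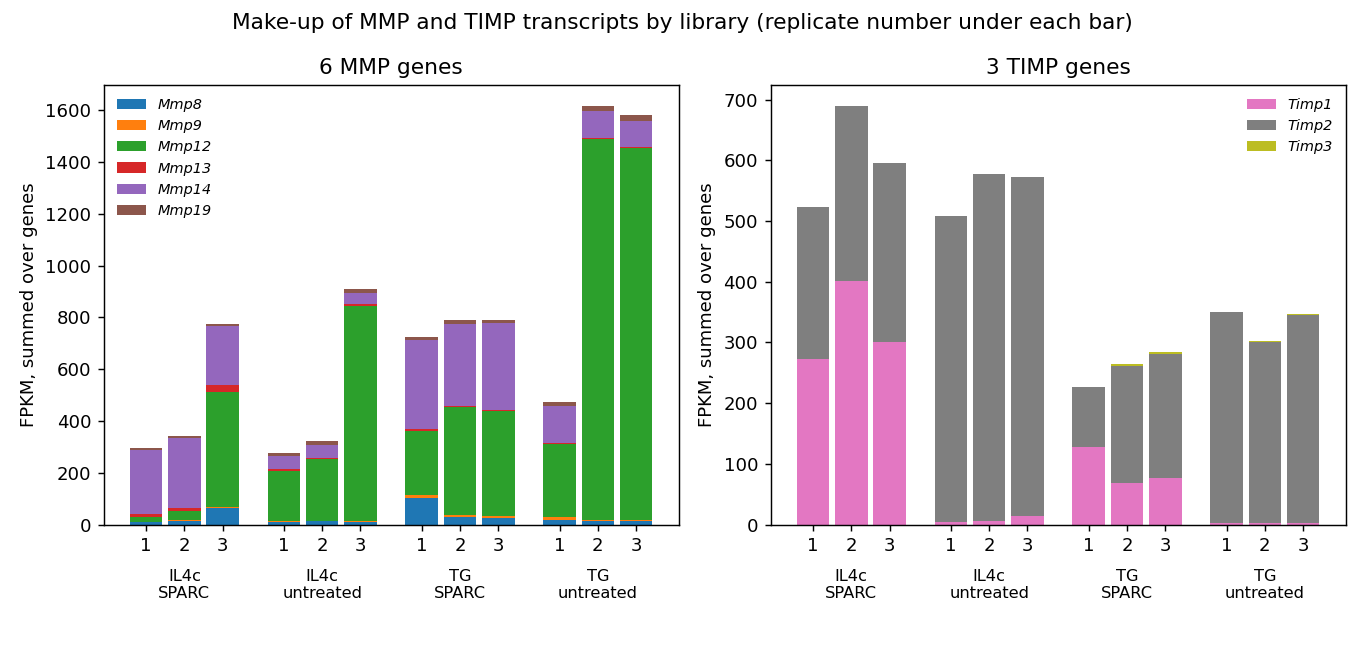
FPKM summed over the 6 MMP genes (left) and the 3 TIMP genes (right) in each library, stacked by gene, with the replicate number under each bar. Timp1 makes up 26.2% to 58.2% of the TIMP bar in SPARC-treated libraries and at most 2.50% in untreated ones, and Mmp12 fills most of the MMP bar in every untreated library.

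IL4c and TG macrophages were compared with each other within each treatment, over libraries that the SPARC comparisons also use. In untreated cells 3 of 9 members passed, where 21.0% of all tested genes did: Timp1 and Timp2 were higher in IL4c macrophages, as were 10.2% of all genes, and Mmp14 was lower, as were 10.8%. In SPARC-treated cells 3 of 9 passed, where 21.0% of all genes did as well: Timp1 was higher in IL4c macrophages, as were 10.9% of all genes, and Mmp19 and Timp3 were lower, as were 10.1%. The median log2 fold change of the members, IL4c over TG, was −0.53 in untreated and −0.79 in SPARC-treated cells, beside −0.05 and −0.03 over all tested genes. Groups did not overlap for 4 members in untreated cells, against 39.0% of all genes, and for 7 in SPARC-treated cells, against 41.4%. Of those 7, Timp3 was separate only by 1.08 against 1.10 CPM.

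Some markers of macrophage subsets differed between the injections. The 8 markers of large resident macrophages summed to 2213 to 3679 CPM in SPARC-treated IL4c macrophages, against 82.9 to 1274 CPM in SPARC-treated TG macrophages, and to 672 to 1302 CPM in untreated IL4c macrophages, against 35.2 to 362 CPM in untreated TG macrophages. Prg4, at 1896 to 3150 CPM, made up most of the sums in SPARC-treated IL4c macrophages. It did not pass between injections (adjusted p = 0.177 with SPARC and 0.166 untreated). Gata6, Selp and Garnl3 passed as higher in IL4c macrophages in both treatments and Icam2 with SPARC, and no other marker of this list passed. The 7 markers of monocytes and small macrophages summed to 1748 to 3356 CPM in SPARC-treated IL4c macrophages, against 246 to 351 CPM in SPARC-treated TG macrophages, and to 3050 to 3473 CPM in untreated IL4c macrophages, against 56.6 to 254 CPM in untreated TG macrophages. Retnla, a gene known to be induced by IL-4, made up nearly all of the IL4c sums and was higher in both treatments, while Ly6c2 and Ccr2 were lower in both. Cd226, Fcrls, Plac8 and Irf4 passed in neither treatment, so this list did not move as a set. The part of these cells in the differences between injections was not tested.

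Timp1 was at 209.5 to 318 CPM in SPARC-treated IL4c macrophages, against 53.0 to 94.8 CPM in SPARC-treated TG macrophages, a log2 difference of 1.89 ± 0.39 (adjusted p = 0.00922). Untreated cells differed by 1.83 ± 0.43 (adjusted p = 0.0158) at a far lower level. That call was lost without untreated TG replicate 2 (adjusted p = 0.0570) and when the untreated groups were fitted alone (0.0602), and without untreated IL4c replicate 3 the value was 1.16. Mmp14 in untreated cells was at 121 ± 9.95 CPM in IL4c macrophages and 265 ± 41.3 CPM in TG macrophages (SD, n = 3 each), a log2 difference of −1.13 ± 0.13 (adjusted p = 9.43e-04). With SPARC the Mmp14 difference was −0.35 ± 0.13 (adjusted p = 0.0823), and it passed without untreated TG replicate 1 (−0.34, adjusted p = 0.0366), with both TG libraries numbered 1 left out (0.0295) and by DESeq2 (0.0441).

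Timp2 in untreated cells was at 1399 ± 128 CPM in IL4c macrophages and 797 ± 60.0 CPM in TG macrophages (SD, n = 3 each), a log2 difference of 0.81 ± 0.22 (adjusted p = 0.0258). This passed in 7 of 12 fits that left out 1 library, and was lost without TG replicate 2 (adjusted p = 0.101) or 3 (0.0581) or IL4c replicate 1 (0.0581), 2 (0.0901) or 3 (0.0527), all untreated. With SPARC the difference was 0.46 ± 0.21 (adjusted p = 0.152), and it passed in filtered log2(FPKM + 1) and log2(FPKM + 0.1) by limma (0.81 and 0.82, adjusted p = 0.0331 and 0.0334). Mmp19 with SPARC was at 25.7 ± 3.32 CPM in IL4c macrophages and 44.8 ± 2.98 CPM in TG macrophages (SD, n = 3 each), a log2 difference of −0.80 ± 0.19 (adjusted p = 0.0162) that was lost without TG replicate 2 (0.0566) or 3 (0.0538) or IL4c replicate 1 (0.0888), all SPARC-treated, and without both IL4c libraries numbered 3 (0.0638). In untreated cells the Mmp19 value was −0.53 ± 0.19 (adjusted p = 0.0714), with an adjusted p of 0.00291 without untreated TG replicate 1 and 0.00192 without both TG libraries numbered 1.

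Timp3 with SPARC had a log2 difference of −4.02 ± 1.19 (adjusted p = 0.0389), and in untreated cells of −3.22 ± 1.16 (adjusted p = 0.0750). In SPARC-treated cells the highest IL4c library (replicate 3, 1.08 CPM from 42 counts) lay barely under the lowest TG library (replicate 1, 1.10 CPM from 36 counts). In untreated cells TG replicate 1 lay within the IL4c range. The call passed in 4 of 12 fits that left out 1 library, with adjusted p values of up to 0.132 in the rest, and its value was −5.17 without the SPARC-treated IL4c replicate 3. Without both IL4c libraries numbered 3 it was lost (adjusted p = 0.0565). The untreated value passed without untreated TG replicate 1 (adjusted p = 0.0203), the SPARC-treated TG replicate 1 (0.0448) or both (0.00202) and by DESeq2 (0.00917). Of the 7 tested fibroblast markers, 4 were lower in SPARC-treated IL4c than in SPARC-treated TG macrophages, namely Col1a1, Col1a2, Col3a1 and Pdgfra, and 1, Dcn, was higher. Their part in the Timp3 values was not tested.

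Of the members that passed in neither treatment, Mmp13 was the one higher in IL4c macrophages, by 1.90 ± 0.66 on the log2 scale with SPARC (adjusted p = 0.0654) and 1.26 ± 0.65 in untreated cells (adjusted p = 0.197). Its groups did not overlap in either treatment, and without the SPARC-treated TG replicate 1 the values passed at adjusted p values of 0.00289 (log2 3.19) and 0.0413. Mmp9 had −1.52 ± 0.67 with SPARC (adjusted p = 0.133), with no overlap, and −1.25 ± 0.68 in untreated cells (adjusted p = 0.211). Mmp8 had −0.79 ± 0.69 with SPARC (adjusted p = 0.441) and −0.43 ± 0.69 in untreated cells (adjusted p = 0.693). Mmp12 had −1.06 ± 1.11 with SPARC (adjusted p = 0.525) and −1.26 ± 1.11 in untreated cells (adjusted p = 0.451). Without the SPARC-treated IL4c replicate 3 the SPARC values of Mmp12 (−3.69, adjusted p = 0.0305) and Mmp8 (−1.99, adjusted p = 0.0375) passed, and without the SPARC-treated TG replicate 1 that of Mmp8 was 0.058.

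**Figure D4:**
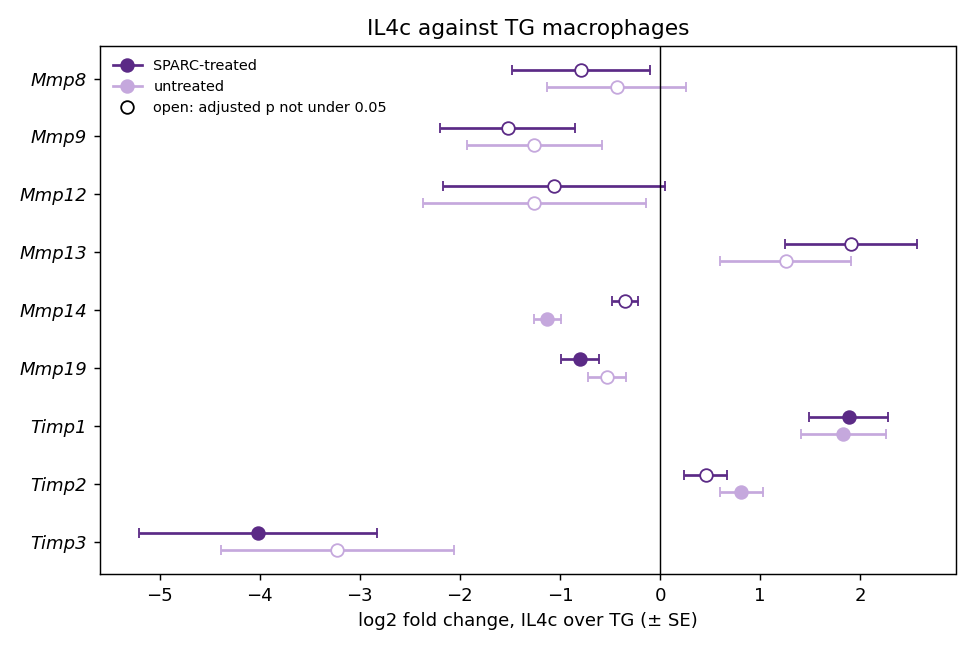
Log2 fold change of IL4c over TG macrophages for each member, in SPARC-treated cells (dark) and untreated cells (light), with the SE as a bar and filled symbols where the adjusted p was under 0.05. Timp1 lies at 1.89 and 1.83 in the 2 treatments, and Timp3 has the widest bars.

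The rest of the family was read from a list of 18 other MMP and TIMP genes. Of these, 7 passed the count filter, and the other 11 had at most 19 counts in any library. One rose with SPARC in IL4c macrophages, Mmp11, a secreted MMP also called stromelysin-3, at 2.28 ± 0.591 CPM with SPARC and 0.801 ± 0.134 CPM untreated (SD, n = 3 each, log2 1.50 ± 0.35, adjusted p = 0.0100), and none passed in TG macrophages, where 1 did without both TG libraries numbered 1. With the pairing as a block 3 of the 7 passed in IL4c macrophages, where 45.2% of all genes did, and 1 in TG macrophages, where 27.3% did, among them Mmp2, gelatinase A, whose zymogen the Mmp14 product activates. Mmp2 was at 6.72, 6.91 and 32.4 CPM in IL4c macrophages with SPARC, against 0.617, 0.424 and 2.66 CPM untreated, and at 119, 9.05 and 13.6 CPM in TG macrophages with SPARC, against 6.53, 0.235 and 0.315 CPM untreated. Each SPARC library was above the untreated library of its own number, with IL4c replicate 3 and TG replicate 1 high in both treatments. The log2 fold change of Mmp2 was 3.61 ± 1.50 in IL4c macrophages (adjusted p = 0.101, with the block 7.5e-05) and 4.30 ± 1.50 in TG macrophages (adjusted p = 0.0963, with the block 7.4e-05).

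The other MMP with the highest FPKM in any library was Mmp27, a little-studied member of the family, at 54.3, 95.7 and 40.5 CPM in IL4c macrophages with SPARC, against 111, 116 and 42.9 CPM untreated. In TG macrophages it was at 11.3, 20.0 and 19.5 CPM with SPARC, against 10.8, 37.6 and 39.8 CPM untreated. It did not pass with SPARC in either injection (adjusted p = 0.528 in IL4c and 0.398 in TG macrophages), and it was higher in IL4c than in TG macrophages in SPARC-treated cells (log2 1.90 ± 0.55, adjusted p = 0.0363), a call that 6 of 12 fits that left out 1 library lost (adjusted p 0.0513 to 0.128). Mmp28, or epilysin, was also higher in IL4c macrophages, at 5.31 ± 1.61 CPM in IL4c and 0.901 ± 0.201 CPM in TG macrophages with SPARC (adjusted p = 0.00105), and at 4.61 ± 1.75 CPM in IL4c and 0.615 ± 0.0327 CPM in TG macrophages untreated (adjusted p = 8.98e-04; SD, n = 3 each). Mmp11 too was higher in IL4c macrophages, with SPARC (2.28 ± 0.591 CPM in IL4c and 0.363 ± 0.0589 CPM in TG macrophages, adjusted p = 0.00142) and untreated (0.801 ± 0.134 CPM in IL4c and 0.281 ± 0.135 CPM in TG macrophages, adjusted p = 0.0188; SD, n = 3 each). The untreated Mmp11 call was lost in 4 fits that left out 1 library (adjusted p 0.0506 to 0.0604). Mmp25, Mmp23 and Mmp3 stayed at or under 10.3 CPM in every library.

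Genes that activate, dock, inhibit or clear MMPs formed a list of 23, of which 17 were tested. In each injection 5 rose with SPARC and none fell, beside 15.1% of all genes that rose in IL4c and 6.73% in TG macrophages, and the median log2 fold change of the list was 0.85 in IL4c and 0.64 in TG macrophages. Lcn2 rose by 7.82 ± 1.26 on the log2 scale in IL4c macrophages (adjusted p = 0.00178) and 6.10 ± 1.17 in TG macrophages (adjusted p = 0.0114). Cav1, a caveolar scaffold protein, rose by 2.63 ± 0.39 in IL4c and 2.60 ± 0.39 in TG macrophages, and Bsg, a surface protein known to induce MMPs in neighbouring cells, by 0.91 ± 0.18 in IL4c and 0.99 ± 0.18 in TG macrophages. Also passing were Reck, a membrane-bound MMP inhibitor, in IL4c macrophages (0.91 ± 0.25, adjusted p = 0.0226), which 4 of the fits that left out 1 library lost (adjusted p 0.0584 to 0.0817), and Serpine2 in TG macrophages (2.47 ± 0.62, adjusted p = 0.0298), which 3 of them lost (0.0706 to 0.107). In the paired fit 8 rose and 4 fell in IL4c macrophages, where 22.8% of all genes rose and 22.4% fell.

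The related ADAM and ADAMTS proteases formed a list of 18, of which 13 were tested. With SPARC 1 rose and 3 fell in IL4c macrophages, and 1 rose and 2 fell in TG macrophages, with median log2 fold changes of −0.59 and −0.05. The share of all genes that passed was 27.8% in IL4c macrophages, close to the 4 of 13 of this list, and 11.3% in TG macrophages. Adam17, the sheddase that releases TNF and that TIMP3 inhibits, rose to 510.1 ± 39.6 CPM with SPARC, against 259.7 ± 18.9 CPM untreated, in IL4c macrophages, and to 485 ± 54.2 CPM with SPARC, against 299 ± 19.1 CPM untreated, in TG macrophages (SD, n = 3 each, adjusted p = 3.55e-04 in IL4c and 0.00574 in TG). Adam10, a sheddase of Notch and other surface proteins, fell by 0.61 ± 0.10 in IL4c macrophages on the log2 scale (adjusted p = 0.00145) and Adamts10, linked to fibrillin microfibrils, by 1.39 ± 0.25 (adjusted p = 0.00318). In TG macrophages they fell by 0.48 ± 0.10 (adjusted p = 0.0129) and 0.93 ± 0.25 (adjusted p = 0.0391). Leaving out 1 library lost the TG call of Adam10 in 4 fits and that of Adamts10 in 8. Both were lost without untreated TG replicate 3 (adjusted p = 0.0692 and 0.0691) or TG replicate 3 with SPARC (0.0710 and 0.0982), which left 1 call. Adamts2, a procollagen N-propeptidase, fell by 1.63 ± 0.48 in IL4c macrophages (adjusted p = 0.0289), and 3 fits that left out 1 library lost it (0.0794 to 0.138). In the fit with the block 3 rose and 6 fell in IL4c and 3 rose and 3 fell in TG macrophages, where 45.2% and 27.3% of all genes passed.

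Transcription factors known to act on MMP promoters formed a list of 20, of which 19 were tested. With SPARC 3 rose and none fell in IL4c macrophages, and 3 rose and 1 fell in TG macrophages, with median log2 fold changes of 0.02 and 0.19. Over all genes 15.1% rose and 12.7% fell in IL4c macrophages, so the 3 of 19 that rose were near the background, and 6.73% rose and 4.52% fell in TG macrophages. Cebpb rose by 1.12 ± 0.19 in IL4c and 1.30 ± 0.19 in TG macrophages (adjusted p = 0.00199 in IL4c and 0.00354 in TG). Junb, the AP-1 subunit in this list that passed, rose by 0.79 ± 0.19 in IL4c and 0.70 ± 0.19 in TG macrophages (adjusted p = 0.0135 in IL4c and 0.0432 in TG). Etv3, a repressor of the ETS family, fell by 0.42 ± 0.09 in TG macrophages (adjusted p = 0.0181). In TG macrophages the call of Junb was lost in 8 of 12 fits that left out 1 library and that of Etv3 in 5. Without any one of the 3 SPARC-treated TG libraries or untreated TG replicate 2 or 3, only 2 passed in TG macrophages. In the paired fit 4 rose and 2 fell in IL4c and 7 rose and 2 fell in TG macrophages, beside 45.2% and 27.3% of all genes that passed.

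Over the 12 libraries, the genes whose log2 CPM followed each member most closely were sought among the 8608 genes that averaged 10 CPM or more. The libraries share the treatment contrast, so high correlations are common here, and no test was made. Timp1 was most like Oasl1 (Pearson r = 0.996), Bcl2a1a (0.993) and Trip4 (0.984), and Mmp14 like Shisa5 (0.988), Tpst1 (0.987) and Slfn8 (0.984). Timp2 was most like Rnf13 (0.987), Enpp1 (0.983) and Nav1 (0.977). Timp3 was most like Myadm (0.988), Sparc itself (0.984) and the collagen gene Col1a2 (0.978). Mmp12 was most like Cd36 (0.956), Dnaja2 (0.955) and Clec7a (0.943), and Mmp19 like Aggf1 (0.967), Mkl1 (0.957) and Spast (0.946). Mmp9 was most like Cd52 (0.953), Slc25a10 (0.952) and Tubgcp5 (0.930), Mmp8 like Rwdd4a (0.962), Usp46 (0.881) and Mrs2 (0.878), and Mmp13 like Ksr1 (0.920), Utp11l (0.910) and Snx25 (0.910). Among the members themselves, Mmp14 and Timp2 ran opposite (r = −0.94 over 12 libraries), Mmp12 and Mmp19 together (0.82), and Mmp14 and Timp1 together (0.76).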

How the data were processed

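The authors deposited expected counts per gene, unscaled, and FPKM values, scaled by length and depth, per the file headers. Of the expected counts above 0, 19.2% were not whole. Per the submitters' processing notes, CASAVA, bcl2fastq 1.8.4, STAR and RSEM were used. Build, annotation and strand setting: not given in the sources used here. Gene positions come from GENCODE M21 on GRCm38, by IDs without version.

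Expected counts were rounded and fitted with edgeR 4.0.16 in R 4.3.3 (TMM scaling, filterByExpr with a minimum count of 10, robust quasi-likelihood test, 12 libraries in 4 groups, 8 residual degrees of freedom, common biological coefficient of variation 0.308). CPM uses TMM-scaled totals. SE is the size of the log2 fold change over the root of its F statistic. Pair ratios add 0.1 CPM. The fit was also run on simulated counts with known changes in some genes. Those counts held no pairing, injection difference or outlying libraries, so that run cannot speak to these features. Alternatives used DESeq2 1.42.0, limma 3.58.1 on log2(FPKM + 1) or (FPKM + 0.1) of genes with at least 1 FPKM in 3 libraries, other scaling or filtering, the groups alone, a replicate block and libraries left out.

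Within an injection, the 6 pairs of equally numbered libraries deviated together from their group means (r from 0.342 to 0.735), which was read as pairing. This comes from the data, since the labels give only numbers. The range was −0.659 to 0.507 for different numbers and −0.178 to 0.250 for the same number across injections. Within an injection the ranges of equal and different numbers thus overlapped, and calls that need the block rest on this reading. No libraries of a group were copies (chi-square per degree of freedom at least 10.6).

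The members, gene lists, markers and tests were chosen with earlier results of these data known. All members and all tested other family genes were named. From each other list, the 4 genes with the smallest p among those that passed in each SPARC comparison were named, along with the 3 genes most like each member; some genes that this rule names are not reported here. Mmp9 and Mmp19 promoters and protein sequences were not used here.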

Additional observations from a re-analysis of the deposited data

How the results depend on the processing

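Over 1021 values of members under alternatives, 911 kept their direction and side of the threshold, 34 lost and 41 gained a call, and 35 changed sign. The cause was not tested. Timp1, Mmp14 and Timp2 kept their SPARC calls in both injections in every fit that left out 1 library.

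With the replicate block, genes passing with SPARC numbered 6880 against 4237 in IL4c and 4165 against 1714 in TG macrophages, and for the difference 472 against 0, with 5 members against 3 in TG and 1 against 0 for the difference. It changed the calls of Mmp12 in IL4c, of Mmp9 and Timp3 in TG macrophages and of the Mmp14 difference, and no other member call with SPARC or for the difference. Between injections another block was used, in which IL4c and TG libraries of equal number shared a term, and it changed no member call. That sharing was assumed, as r between equal numbers across injections was only −0.178 to 0.250.

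Without both TG libraries numbered 1, 6507 genes passed with SPARC in IL4c macrophages, 6002 between untreated injections (5 members), 5587 between SPARC-treated injections (5 members) and 836 for the difference (1 member). Without both IL4c libraries numbered 3, 2679 passed with SPARC in IL4c macrophages and 1 for the difference. Fitted alone, the TG groups gave 505 genes and the untreated groups 1631. The TG calls of Adam10, Adam17, Adamts10, Bsg, Etv3, Lcn2 and Serpine2 were then lost (adjusted p 0.0555 to 0.159). Unfiltered log2(FPKM + 1) gave 1001 genes in TG macrophages, 1 member between untreated injections and 38 genes for the difference, against 16 with the filter and 3 with log2(FPKM + 0.1). DESeq2 gave 5 members between SPARC-treated injections and, for the difference, 319 genes with 1 member. Total counts and no count filter gave 2 genes each for the difference.

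Leaving out 1 library gave 2507 to 5178 genes and 3 to 5 members with SPARC in IL4c macrophages and 737 to 2095 genes and 3 to 4 members in TG macrophages. It gave 1376 to 4562 genes and 1 to 5 members between untreated injections, 1777 to 4293 and 1 to 5 between SPARC-treated ones, and 0 to 278 genes and 0 members for the difference.

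Signs turned for members that had not passed. Without both TG libraries numbered 1, Mmp13 was −0.54 in TG macrophages, Mmp8 0.057 between SPARC-treated injections and 0.41 for the difference. Without both IL4c libraries numbered 3, Mmp8 was −0.027 in IL4c macrophages, and the differences of Mmp13 and Mmp12 were −0.021 and −1.48. The Mmp12 difference was −1.15 with the block, −1.06 with log2(FPKM + 1), filtered or not, and −1.09 with log2(FPKM + 0.1), and that of Timp2 was 0.090 with log2(FPKM + 1), filtered or not, and 0.092 with log2(FPKM + 0.1). Leaving out 1 library, ranges were −0.38 to 1.29 for Mmp13 in TG macrophages, −1.17 to 0.38 for Timp3 in IL4c macrophages, −1.99 to 0.058 for Mmp8 between SPARC-treated injections, and for the differences −1.59 to 0.47 for Mmp8, −1.20 to 0.51 for Mmp9, −2.46 to 1.16 for Mmp12 and −0.24 to 0.72 for Timp1.

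Unscaled totals moved the share of higher calls to 44.7% against 59.8% in TG macrophages and 29.3% against 48.4% between untreated injections, where the median log2 value of all genes was −0.165 against −0.05. Depth limits Timp3 in IL4c macrophages, with 8 to 42 counts.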
